A study of Mus musculus with 4 samples.

Results

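S100a8, S100a9, Slpi, Retnlg, Csf3r, S100a4, S100a6, S100a10 and S100a11 are S100 genes and genes used as marks of neutrophils. They were followed here through single cells of YUMMER1.7 tumors, a mouse melanoma line grown in male C57BL/6J mice of 7 to 8 weeks. They are 9 of the 32285 genes in the count tables and were matched by symbol. They were selected from measured values of these data, namely their unique molecular identifiers (UMIs, each counting 1 captured RNA molecule) per lineage gate, treatment arm and cohort. Levels by gate are therefore given as a description, without a test. Tumors were sorted by CD45, the pan-leukocyte surface protein, and recombined as 80% CD45+ and 20% CD45- cells. Mice of the long cohort received 4 doses over 2 weeks and tumors were taken at day 21. Mice of the short cohort received 2 doses over 1 week and tumors were taken at day 14. Each cohort had an arm with isotype control antibody, an arm with anti-PD-1, an arm with anti-MIF and an arm given both antibodies (the combination arm). Arms were labelled with separate hashtag antibodies and captured together, as 1 library per cohort.

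After filtering, the long cohort held 204 isotype, 319 anti-PD-1, 879 anti-MIF and 269 combination cells, and the short cohort held 745, 1370, 556 and 448. The arms held between 1563467 and 8712647 UMIs, and the median cell held 8242 UMIs in the long and 5835 in the short cohort. Each arm is 1 hashtagged sample in which mice are not told apart, so spread between arm samples is the only error available, and 95% intervals of a single arm cover counting error only. Cohort and library cannot be told apart. The libraries shared 20 cell barcodes, 12 of them among the kept cells. Levels are given as CPM, the UMIs of a gene per 1000000 UMIs of the cells summed. A UMI counts a molecule and not its fragments, so CPM was not divided by gene length.

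Cells were put into gates by the presence of at least 1 UMI. The T gate required Cd3e, a T cell receptor subunit, and held 276 cells of the long and 315 of the short cohort. The mature dendritic cell (DC) gate required Ccr7 and Fscn1 and held 103 and 46 cells. The monocyte/macrophage gate required Lyz2 with Ly6c2 or C1qb and held 824 and 1866 cells. The remaining 468 and 892 cells formed the rest gate. Other markers followed these gates in part. T cell markers (Cd3d, Cd3g and Trac) were present in 92.4% of T gate cells of the long cohort and in 2.55% of its monocyte/macrophage gate cells. Monocyte and macrophage markers such as Csf1r and Plac8 were present in 99.2% of the latter, but also in 74.6% of rest and 53.6% of T gate cells. Their levels in these 3 gates were 2952, 1661 and 492 CPM. The 5 melanocyte lineage markers were at or near 0 in every gate, with 2 UMIs at most in any gate, although CD45- cells were part of the mixture.

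S100 proteins are small calcium-binding proteins. S100A8 and S100A9 pair to form calprotectin, which makes up much of the cytosol of neutrophils, binds zinc and manganese and acts as an alarmin when released. S100A4, S100A6, S100A10 and S100A11 are made by many cell types, and S100A10 and S100A11 bind annexins at membranes. Slpi encodes a secreted inhibitor of neutrophil serine proteases, Retnlg a resistin-like protein of myeloid cells, and Csf3r the receptor for G-CSF, the cytokine that drives neutrophil production.

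All 6 S100 members lie on chromosome 3 of GRCm38 between 90603771 and 93564643, a span with 68 protein-coding genes. S100a8 (ENSMUSG00000056054, 90668978 to 90670035, forward strand) and S100a9 (ENSMUSG00000056071, 90692632 to 90695721, reverse strand) are separated by 22596 bp and are read towards each other. Slpi (ENSMUSG00000017002) is on chromosome 2, Retnlg (ENSMUSG00000022651) on chromosome 16 and Csf3r (ENSMUSG00000028859) on chromosome 4. The RefSeq table of GRCm38.p6 promoters held 8 of the 9 members. The 250 bases before the RefSeq start, which can differ from the gene start given above (for S100a8 the window reaches into the gene as placed there), are printed for S100a8 and S100a9, which had the most like pattern to each other over gates and arms, and for S100a4, a family member with UMIs in every gate. Capitals mark ATTGC or its reverse complement GCAAT, the half-site bound by C/EBP factors of granulocyte development, and GAGGAA or its reverse complement TTCCTC, a core of the kind bound by the ETS factor PU.1. Both strands were searched, and the letters were chosen with the members known.
S100a8: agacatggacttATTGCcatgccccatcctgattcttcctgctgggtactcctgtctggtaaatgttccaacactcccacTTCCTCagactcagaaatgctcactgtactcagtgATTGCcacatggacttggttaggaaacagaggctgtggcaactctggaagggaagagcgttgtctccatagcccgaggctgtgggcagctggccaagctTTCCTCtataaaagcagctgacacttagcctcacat
S100a9: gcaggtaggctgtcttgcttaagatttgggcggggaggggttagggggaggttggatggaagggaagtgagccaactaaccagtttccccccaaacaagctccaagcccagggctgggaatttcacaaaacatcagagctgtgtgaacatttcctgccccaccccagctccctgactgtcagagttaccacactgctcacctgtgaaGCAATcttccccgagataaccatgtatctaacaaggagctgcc
S100a4: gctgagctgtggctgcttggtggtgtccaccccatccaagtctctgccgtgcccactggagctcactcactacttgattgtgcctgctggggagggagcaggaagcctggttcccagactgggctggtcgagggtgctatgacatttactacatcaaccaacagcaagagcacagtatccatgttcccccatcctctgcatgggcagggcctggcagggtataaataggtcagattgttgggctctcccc
They lie at chr3:90668821-90669070 (forward strand), chr3:90695722-90695971 (reverse strand) and chr3:90603520-90603769 (forward strand). The half-site ATTGC was present in 5 of 5 promoters of S100a8, S100a9, Slpi, Retnlg and Csf3r and in 0 of 3 promoters of S100a4, S100a6 and S100a11, against 23.1% of all 32851 promoters. It had 2 matches in S100a8 and 3 in Slpi. GAGGAA was present in S100a8, Csf3r and S100a11, against 23.3% of all promoters. A match describes the letters of this window and is no evidence of binding.

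S100a8, S100a9 and Retnlg were carried by very few cells. Of 1671 cells of the long cohort, 90 had a UMI of S100a8, 55 of S100a9 and 25 of Retnlg, and of 3119 cells of the short cohort 205, 90 and 43. The 10 cells with most S100a8 held 73.7% of its 8542 UMIs in the long cohort and 48.0% of its 6076 UMIs in the short cohort. To place these cells without the members themselves, neutrophil marker cells were defined by at least 3 of 10 other genes (Cxcr2, G0s2, Il1r2, Hdc, Ly6g, Mmp8, Mmp9, Cd177, Lrg1 and Stfa2l1). There were 42 such cells in the long cohort (2.51% of cells, 1.74% of all UMIs) and 104 in the short cohort (3.33% of cells, 3.34% of UMIs). They held 92.5% of S100a8, 98.4% of S100a9 and 99.7% of Retnlg UMIs in the long cohort. Their shares in the short cohort were 86.1%, 95.6% and 98.5%. Of the 10 markers, 8 had 50% or more of their own UMIs in these cells in the long cohort and 6 in the short cohort. The markers define the cells, so this is in part set in advance and is no support for the definition. Il1r2, the most abundant marker, had 5.11% and 8.69% there.

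**Figure D1:**
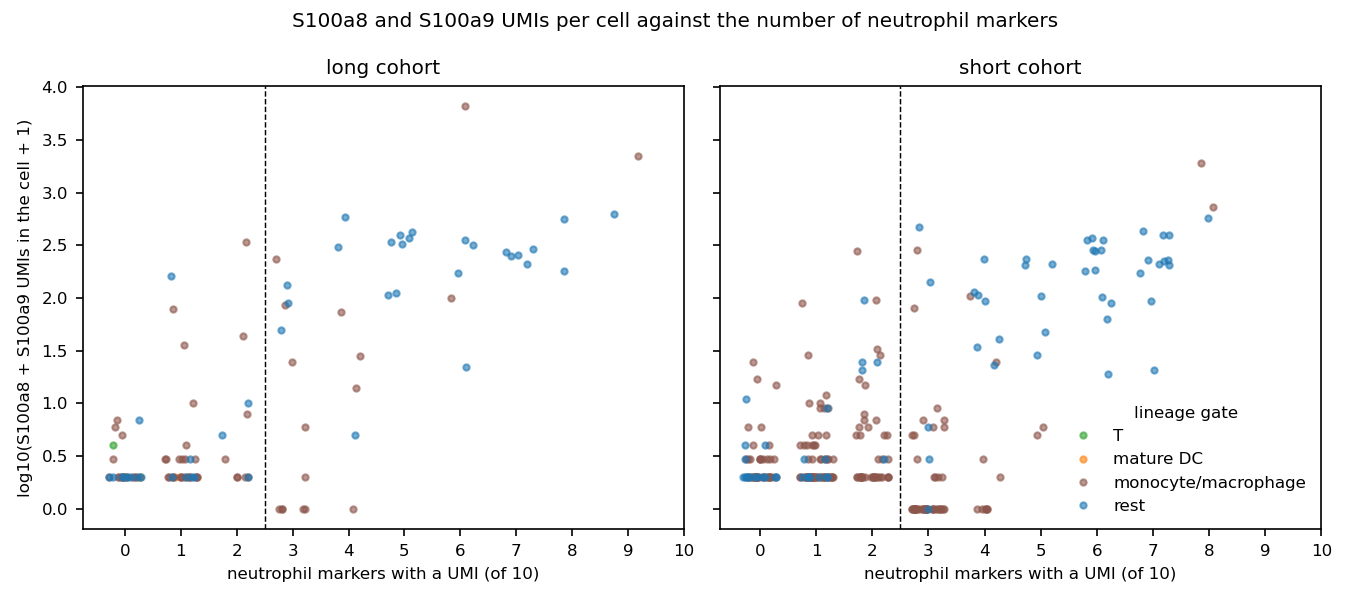
Each point is 1 cell with a UMI of S100a8 or S100a9 or with at least 3 neutrophil markers; the x axis is the number of the 10 neutrophil markers with a UMI (points spread sideways for visibility), the y axis the log10 of the cell's S100a8 and S100a9 UMIs plus 1, and colors are the gates. Right of the dashed line (3 markers or more) are 42 cells of the long and 104 of the short cohort; cells with 5 or more markers are mostly rest gate cells with many UMIs, and cells at 3 or 4 markers include monocyte/macrophage gate cells at 0.

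The other members were not confined to these cells. Neutrophil marker cells held 18.6% of Slpi and 32.1% of Csf3r UMIs in the long cohort; in the short cohort they held 12.2% and 21.7%. For S100a4, S100a6, S100a10 and S100a11 the shares were 2.19%, 3.25%, 1.82% and 4.09% in the long cohort, against 1.74% of all UMIs, and reached at most 4.94% in the short cohort, against 3.34%. All 4 genes were above the share of all UMIs in both cohorts, S100a10 by the least and S100a11 by the most. For S100a4 and S100a10 these shares come almost wholly from marker cells of the monocyte/macrophage gate. Marker cells of the rest gate nearly lacked both genes, as given below.

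**Figure D2:**
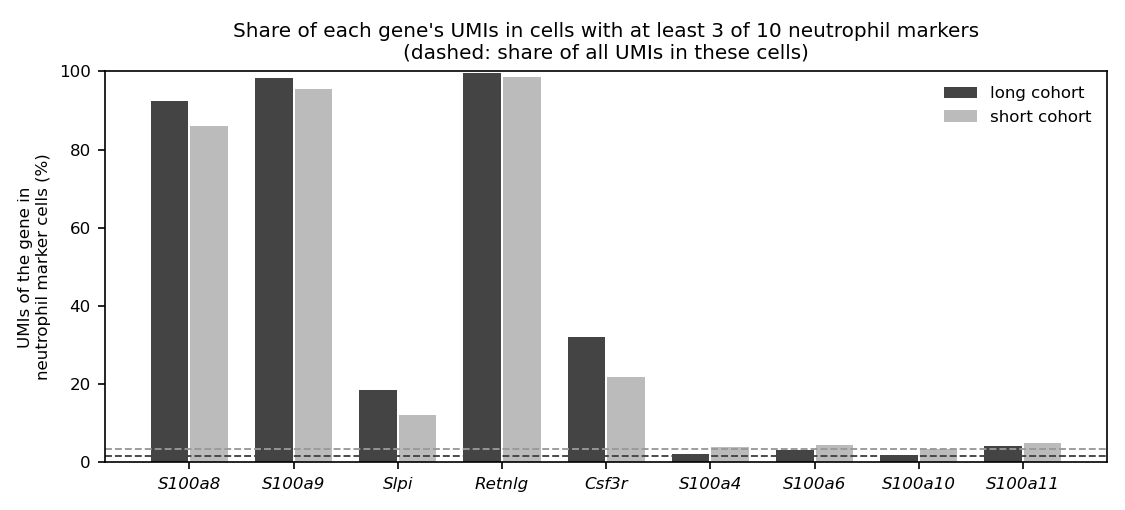
Bars give the percent of each gene's UMIs that lie in neutrophil marker cells, dark for the long and light for the short cohort, and dashed lines the percent of all UMIs in these cells (1.74% and 3.34%). S100a8, S100a9 and Retnlg stand above 85% in both cohorts, Slpi and Csf3r between 12% and 33%, and the other S100 genes under 5%, above the dashed lines. Marker cells of all gates are pooled, and those of the rest gate nearly lack S100a4 and S100a10.

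S100a8 was highest in the rest gate in 7 of 8 arms and near 0 in T and mature DC gates. In the rest gate of the long cohort it was at 1079 CPM in the isotype arm, 1660.3 in the anti-PD-1 arm, 699.8 in the anti-MIF arm and 1235 in the combination arm, and in the short cohort at 1733, 279, 1877 and 40.8 in the same order. The 2 short arms that received anti-PD-1 lay below the other 6. Few cells set these levels. The rest gate held 6 and 1 neutrophil marker cells in those 2 arms, against 23 and 12 in the short isotype and anti-MIF arms. In the long isotype arm it held 2, and 1 cell had 272 of the 337 S100a8 UMIs. In the monocyte/macrophage gate S100a8 was at 380, 36.1, 13.8 and 3475 CPM in the long cohort and at 265, 6.08, 528 and 18.6 in the short cohort. The combination arm of the long cohort stood far above all others there, and arms with and without anti-MIF overlapped.

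S100a9 followed S100a8. It was at 1393, 1857, 963 and 1159 CPM in the rest gate of the long cohort and at 2072, 371, 2180 and 20.4 in that of the short cohort, arms in the same order. It was at 46.4, 1.76, 6.39 and 3168 CPM in the monocyte/macrophage gate of the long cohort and at 165, 5.04, 399.5 and 0 in the short cohort. As for S100a8, the short arms with anti-PD-1 were the lowest in the rest gate. Retnlg in the rest gate was at 125, 299, 109.8 and 89.2 CPM in the long cohort and at 264, 18.0, 386 and 3.14 in the short cohort, with the same 2 arms lowest. Most UMIs of S100a8, S100a9 and Retnlg lay in the same set of neutrophil marker cells, so their like order is not independent. Retnlg exceeded 6 CPM in the monocyte/macrophage gate in only 2 of 8 arms, at 103 CPM in the combination arm of the long cohort and at 174 CPM in the anti-MIF arm of the short cohort.

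**Figure D3:**
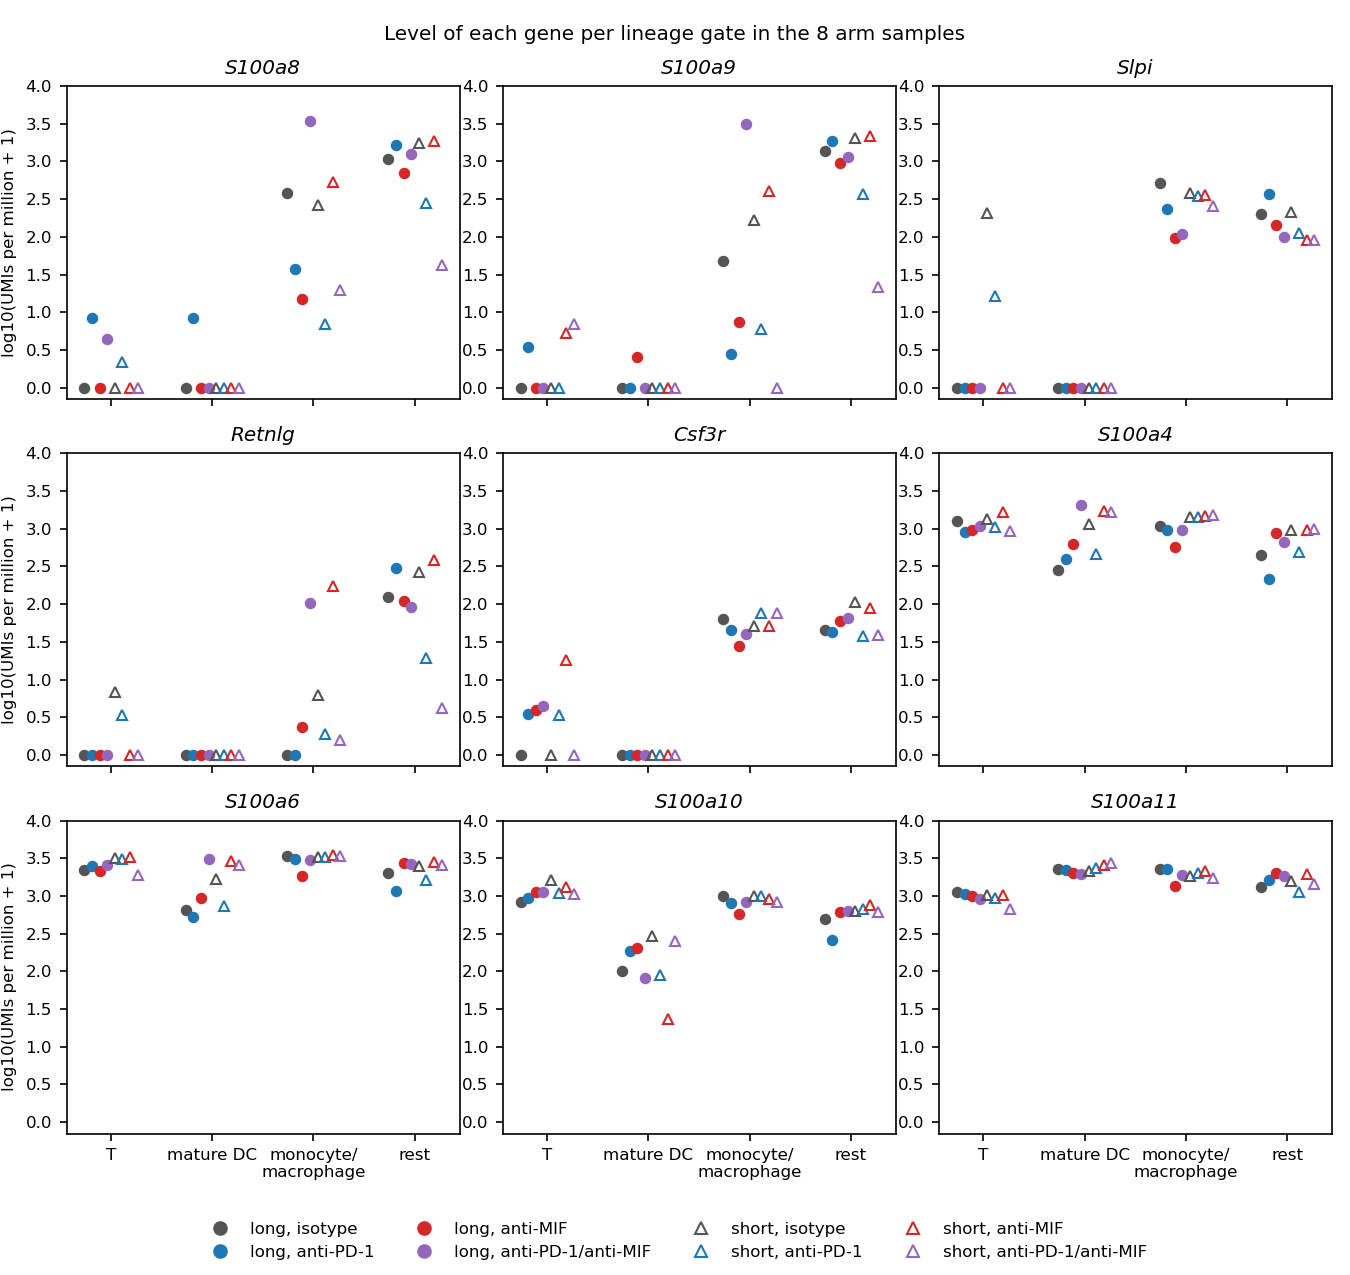
Each panel gives 1 gene as log10(CPM + 1) in the 4 gates; filled circles are the 4 arms of the long cohort, open triangles the 4 arms of the short cohort, and colors the treatments. S100a8, S100a9 and Retnlg vary between arms by orders of magnitude and are at or near 0 in the T and mature DC gates, while S100a4, S100a6, S100a10 and S100a11 are present in every gate and arm.

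A few cells set these arm values. In the combination arm of the long cohort, 1 monocyte/macrophage gate cell held 3409 S100a8 and 3190 S100a9 UMIs and another held 1011 and 1197, out of 4940 and 4504 in that gate. The first had 32413 UMIs in all, 280 of Lyz2 and 28 of Ly6c2, and carried 88.1% of the cohort's UMIs of Ngp, 87.8% of those of Camp (both neutrophil granule genes) and 94.2% of those of Elane (neutrophil elastase). These 3 genes were named after their values were seen. Whether this barcode holds more than 1 cell was not tested. In the anti-MIF arm of the short cohort, 1 cell held 903 of 1387 S100a8 UMIs and all 457 Retnlg UMIs of the gate. With neutrophil marker cells left out, S100a8 in the monocyte/macrophage gate was at 20.9, 14.4, 2.71 and 305 CPM in the long arms and at 119, 5.60, 106 and 15.9 CPM in the short arms. These levels still rest on few cells: 1 cell with 2 markers held 246 of the 413 UMIs of the long combination arm, and 1 such cell held 176 of the 408 UMIs of the short isotype arm.

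Neutrophil marker cells were of different kinds in the gates that held them. The rest gate held 25 of them in the long and 42 in the short cohort, and 24 and 39 of these had at least 10 UMIs of S100a8 and S100a9 together. Retnlg was present in 21 of 25 and 29 of 42. The monocyte/macrophage gate held 17 and 62, of which 6 and 40 had no UMI of S100a8 or S100a9. Csf1r, the receptor of macrophage colony-stimulating factor, was present in 13 of 17 and 51 of 62 of the latter and in 4 of 25 and 4 of 42 of the rest gate cells. The rest gate cells were shallow, with a median of 2407 and 1699.5 UMIs, against 10396 and 8295 in the monocyte/macrophage gate. How many cells had Csf1r and lacked both S100a8 and S100a9 was not counted.

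Within the rest gate, the neutrophil marker cells carried S100 genes unequally: S100a6 and S100a11 were abundant, whereas S100a4 and S100a10 were nearly absent. S100a6 was at 3882 CPM in the marker cells and 2272 in the other cells of the gate in the long cohort, and at 5493 and 2164 in the short cohort. S100a11 was at 6694 and 1690 CPM, and at 5092 and 1356. S100a4 was at 87.9 CPM (6 UMIs, all in 1 of 25 cells) against 656 in the long cohort and at 122 CPM (10 UMIs in 1 of 42 cells) against 792 in the short cohort. S100a10 had 0 UMIs in the 25 cells of the long cohort, where the floor of 3 counts is 43.9 CPM, against 543 CPM in the other cells. In the short cohort S100a10 was at 97.2 CPM (8 UMIs in 2 of 42 cells) against 678. The exact Poisson 95% intervals of marker and other cells were apart for each of these genes in both cohorts. With cells drawn down to 1000 UMIs, 91.7% and 84.6% of marker cells and 50.8% and 57.1% of the other cells had a UMI of S100a6, and 0% and 2.56% of marker cells and 27.8% and 31.6% of the other cells had one of S100a4. The rest gate as a whole was mixed, and monocyte and macrophage markers were present in 74.6% and 75.8% of its cells. Markers of NK cells were present in 8.55% and 19.6%, and markers of type 1 conventional DC in 35.3% and 22.7%. The latter, mostly UMIs of Wdfy4, were present in more cells of the monocyte/macrophage gate (43.3% and 37.1%), so they do not single out that cell type. The arms held between 1 and 23 marker cells in this gate, and the difference was not tested over arm samples.

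**Figure D4:**
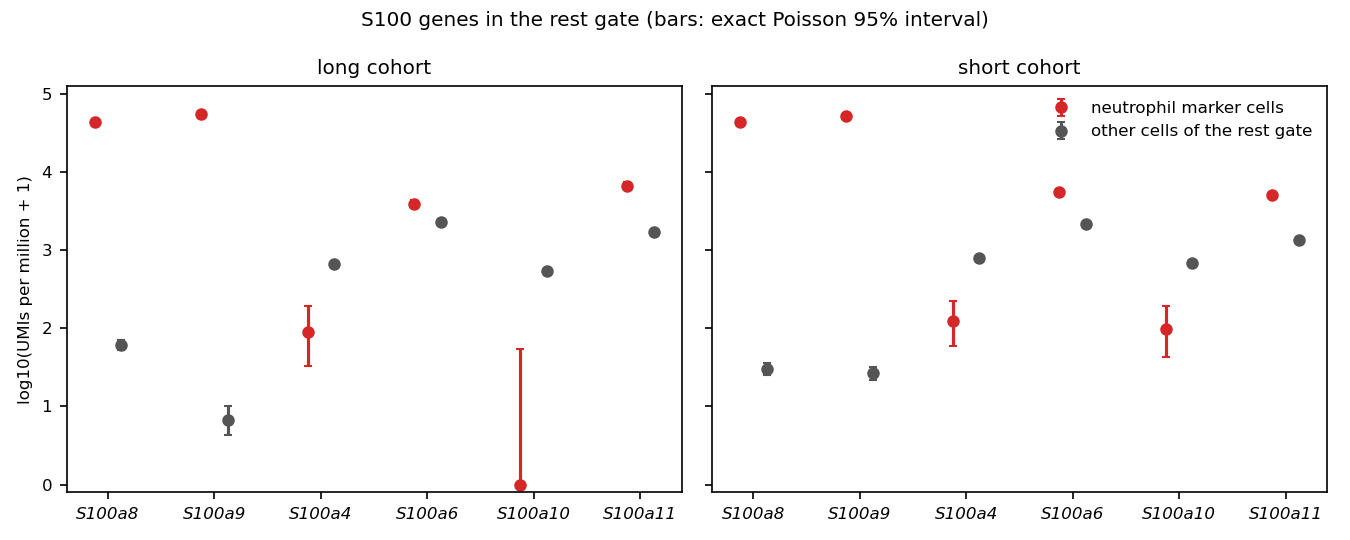
S100 genes in neutrophil marker cells (red) and in the other cells (grey) of the rest gate, as log10(CPM + 1) with exact Poisson 95% intervals, which cover counting error only. S100a8, S100a9, S100a6 and S100a11 are higher in the marker cells and S100a4 and S100a10 lower in both cohorts; S100a10 has 0 UMIs in the marker cells of the long cohort.

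S100a8 was also found without S100a9. In neutrophil marker cells there were 0.966 UMIs of S100a8 for each UMI of S100a9 in the long cohort (exact 95% interval 0.936 to 0.996) and 0.906 in the short cohort (0.872 to 0.940). In the other cells of the monocyte/macrophage gate this ratio was 4.0 (3.25 to 4.95) in the long and 4.33 (3.66 to 5.16) in the short cohort. Among those with fewer than 10 UMIs of the pair, 36 of 803 cells of the long cohort had S100a8 and 8 had S100a9, with 1 cell having both, and 111 and 19 of 1792 cells of the short cohort, with 5 having both. There the ratio was 7.78 (3.87 to 17.7) and 8.69 (5.78 to 13.6). By arm, the long cohort had 15 UMIs of S100a8 and 0 of S100a9 in such cells with isotype, 16 and 2 with anti-PD-1, 16 and 5 with anti-MIF, and 23 and 2 in the combination arm. In the short cohort the isotype arm had 122 UMIs of S100a8 and 4 of S100a9 in such cells, the anti-PD-1 arm 23 and 13, the anti-MIF arm 68 and 9 and the combination arm 13 and 0. S100a8 had more UMIs than S100a9 in all 8 arms, but in the short anti-PD-1 arm the ratio was 1.77 with an interval that includes 1, and the isotype arm gave 122 of the 226 S100a8 UMIs of such cells in the short cohort. Among the other cells of the rest gate the ratio was 10.4 (6.32 to 18.3) in the long and 1.14 (0.864 to 1.51) in the short cohort. In the long cohort, 1 of these cells held 160 of their 194 UMIs of the pair. The order of the arms was not the same in the cohorts. UMIs of 1 cell are not independent, so the intervals are narrower than the true error.

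Most UMIs of Slpi lay in the monocyte/macrophage gate. It had 1384 UMIs there in the long cohort (149 CPM, 18.6% of cells) and 4782 in the short cohort (349 CPM, 35.9% of cells), 0 UMIs in the mature DC gates, and 0 UMIs in the 276 T gate cells of the long cohort, where 3 counts would be a share of 1.09% of cells with a UMI at this depth. The rest gate had fewer UMIs, 561 and 520, but its level of 186 CPM (12.4% of cells) in the long cohort was above that of the monocyte/macrophage gate, and in the short cohort it was at 131 CPM (12.2% of cells). By arm, the monocyte/macrophage gate was higher in 6 of 8 and the rest gate in 2, the long anti-PD-1 and anti-MIF arms. At 2000 UMIs per cell, 10.4% of monocyte/macrophage and 9.52% of rest gate cells of the long cohort had a UMI of Slpi, and at 1000 UMIs 7.53% and 8.54%, so the gates of the long cohort have no fixed order by share. For the short cohort the shares at 2000 UMIs were 21.6% and 8.53%. Per arm, Slpi in this gate was at 516 CPM in the isotype arm, 233 in the anti-PD-1 arm, 95.3 in the anti-MIF arm and 107 in the combination arm in the long cohort, and at 381, 351, 362 and 253 CPM in the short cohort. The 2 arms of the long cohort with anti-MIF were the lowest of all 8. Cells of a further hashtag, whose name adds DDT to the combination, were left out of these 8 arms and not tested. They had Slpi at 421 CPM in this gate of the long cohort (exact Poisson 95% interval 394 to 449). That was above the long anti-PD-1 arm and below the long isotype arm. In the short cohort they were at 310 CPM, within the range of the short arms. In the 2 long arms with anti-MIF the gate held 55.5% and 48.3% of cells, against 40.2% with isotype and 38.9% with anti-PD-1. The gate pools cells with Ly6c2 and cells with C1qb, and the part of its make-up in the Slpi level was not tested. In cells drawn down to 2000 UMIs, a UMI of Slpi was present in 20.0%, 18.5%, 6.43% and 12.1% of cells of the long cohort and in 22.4%, 23.4%, 20.6% and 15.7% of the short cohort. Without neutrophil marker cells the CPM were 456, 221, 94.2 and 97.4 for the long arms and 348, 336, 338 and 239 for the short arms, so the order of the long arms with and without anti-MIF was the same.

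Csf3r had 313 and 873 UMIs in the monocyte/macrophage gate and 166 and 257 in the rest gate of the long and short cohorts. By CPM each gate was the higher in 4 of 8 arms. Its monocyte/macrophage levels were 63.2, 44.0, 26.6 and 39.4 CPM in the long cohort and at 51.0, 74.7, 49.9 and 74.5 CPM in the short cohort. Arms with and without anti-MIF overlapped. Csf3r was present in 27.1% and 31.5% of monocyte/macrophage gate cells, in 12.4% and 13.1% of rest gate cells, in 1.45% and 1.27% of T gate cells and in none of the 103 and 46 mature DC gate cells. These shares follow depth, with a median of 10972 and 6884 UMIs in the monocyte/macrophage and 4897.5 and 3382 in the rest gate. Drawn down to 2000 UMIs, 5.96% and 12.5% of monocyte/macrophage gate cells and 7.67% and 7.11% of rest gate cells had a UMI of Csf3r, and at 1000 UMIs 3.77% and 5.48% against 5.39% and 6.65%. No order of these gates is read from the shares. In neutrophil marker cells of the rest gate it was at 1904 and 2005 CPM, and in the other cells of that gate at 12.2 and 23.6 CPM.

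S100a4, S100a6, S100a10 and S100a11 differed between gates by their own patterns. S100a10 was lowest in the mature DC gate in 8 of 8 arms, at 22.3 to 296 CPM (mean 153 ± 94.8, SD, n = 8 arms). It was at 839 to 1621 CPM in the T gate (1142 ± 241), 570 to 990 in the monocyte/macrophage gate and 256 to 751 in the rest gate. The 22.3 CPM was 1 UMI in 6 cells of the short anti-MIF arm, under the floor of 3 counts (66.9 CPM). The short anti-PD-1, long combination and long isotype arms had 5, 8 and 9 UMIs in the mature DC gate. S100a11, in contrast, was lowest in the T gate in 8 of 8 arms, at 668 to 1134 CPM (974 ± 139, SD, n = 8 arms). It was at 1977 to 2765 CPM (2288 ± 276) in the mature DC gate, above the rest gate in 8 of 8 arms and above the monocyte/macrophage gate in 6 of 8, where the ranges overlapped. S100a4 ranged from 909 to 1645 CPM in the T gate and from 576 to 1536 in the monocyte/macrophage gate, each being higher in 4 of 8 arms. S100a6 was at 1907 to 3268 CPM in the T gate and 1822 to 3506 in the monocyte/macrophage gate, and the latter was higher in 7 of 8 arms. For S100a4 and S100a6 the spread was widest in the mature DC gate, from 279 to 2058 CPM and from 519 to 3072 CPM. This gate held 69 cells in the long anti-MIF arm and only 6 to 23 in each other arm. The highest values came from 9 cells of the long combination arm, with 55 of 203 S100a4 and 85 of 303 S100a6 UMIs in 1 cell each. The part of such sampling in the spread was not tested.

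UMIs of genes that T cells should lack were counted in the T gate, as a measure of background from free RNA or from barcodes with more than 1 cell. In the T gate, 7 reference genes of macrophages, dendritic cells and B cells reached a median of 9.51% of their level in all other cells in the long cohort (range 4.10% to 10.3%) and 1.48% in the short cohort (0% to 3.19%). This background lay in few cells: of 244 C1qa UMIs in the T gate of the long cohort, found in 20 of 276 cells, 100 were in 1 cell, and 1 cell held 85 Apoe UMIs. The T gate also took cells that met more than 1 gate (24 and 25 cells over all gates), and the part of free RNA and of such cells was not tested. S100a8 reached 0.353% and 0.207% and S100a9 0.0905% and 0.417%. S100a8 was present in 2 of 276 and 1 of 315 T gate cells, with median depths of 5332 and 4086 UMIs, against 9137 and 6126 in the other cells. Both genes were thus below the median of the reference genes. Retnlg had 0 UMIs in the long T gate and 3 UMIs in 3 cells of the short one, which is 3.52% of its level elsewhere and above the reference range. Slpi had 49 UMIs in 7 T gate cells of the short cohort (11.6% of the level elsewhere), 34 of them in 1 cell. Csf3r in T gate cells stood at 6.28% and 6.69% from 4 and 6 UMIs. S100a4 (147% and 91.3%), S100a6 (105% and 96.4%), S100a10 (168% and 137%) and S100a11 (60.4% and 51.1%) were far above that background.

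The effect of anti-MIF was fitted across all genes by edgeR's quasi-likelihood test on UMIs summed per arm, with 4 arm samples on each side and additive terms for cohort and for anti-PD-1. In the monocyte/macrophage gate 0 of 9583 genes (0%) passed a Benjamini-Hochberg adjusted p of 0.05, 650 had an unadjusted p under 0.05, and DESeq2 on the same sums called 10. None of the 9 members was called. Slpi was fitted at -1.06 on the log2 scale (standard error 0.32, adjusted p = 0.691, edgeR) and was lower in 4 of 4 pairs of arms. Its difference in log2(CPM + 1) was -2.42 between the anti-MIF and isotype arms and -1.12 between the combination and anti-PD-1 arms of the long cohort, and -0.07 and -0.47 between those of the short cohort. S100a8 was fitted at 2.88 (standard error 1.81) and S100a9 of 3.69 (standard error 2.29), with adjusted p of 0.798 and 0.795 in edgeR. Without the long combination arm these values were -0.57 and -0.41. Retnlg had 5.1 (standard error 1.69, adjusted p = 0.691, edgeR), resting on the same few cells. Csf3r, S100a4, S100a6, S100a10 and S100a11 had log2 fold changes between -0.37 and -0.23, against a median of 0.01 over all genes tested. With 1 arm left out, these stayed below 0 but ranged from -0.55 (Csf3r) to -0.011 (S100a4). The genes had been chosen with values by arm known, so these p-values are no independent evidence.

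**Figure D5:**
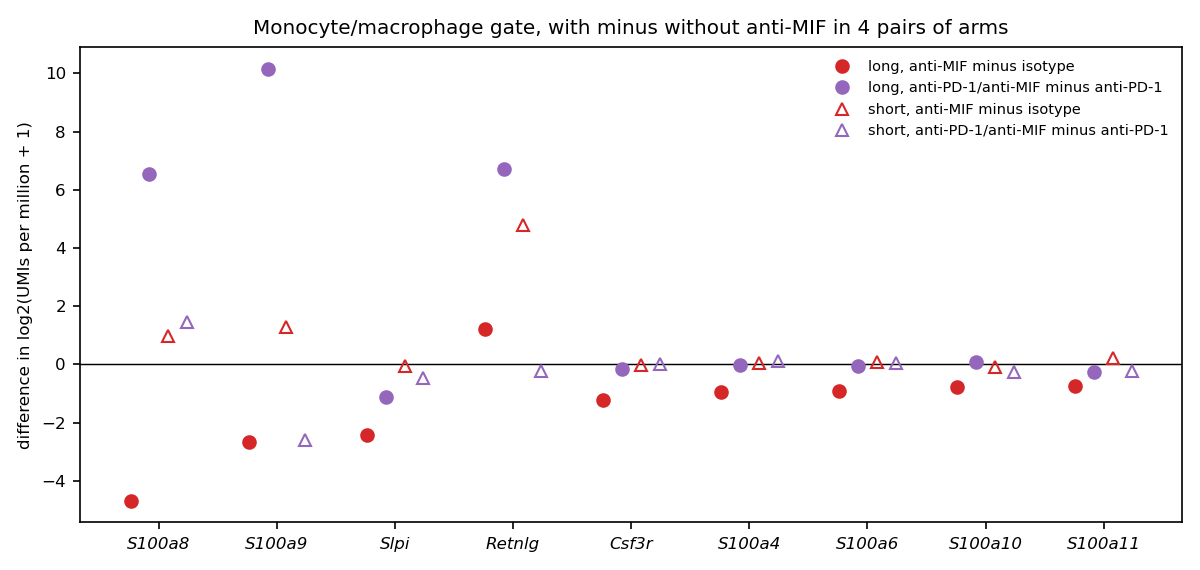
Difference in log2(CPM + 1) between the arm with and the arm without anti-MIF in the monocyte/macrophage gate, for each gene and each of the 4 pairs of arms; filled circles are the long and open triangles the short cohort. Slpi and Csf3r are below 0 in 4 of 4 pairs, Csf3r by as little as -0.0036. S100a8, S100a9 and Retnlg scatter to both sides, and S100a4, S100a6, S100a10 and S100a11 lie within 1 unit of 0.

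Whether the anti-MIF effect differed between cohorts was tested as an interaction. Of 9583 genes, 2 (0.0209%) passed in edgeR, 1014 had an unadjusted p under 0.05, and DESeq2 called 50. Slpi had the lower value in the long cohort, with an interaction of -1.49 on the log2 scale (standard error 0.40, adjusted p = 0.288 in edgeR). DESeq2 gave -1.50 with an adjusted p of 0.0451, and edgeR without the long combination arm gave -1.87 with an adjusted p of 0.0198, so this call depends on the tool and on 1 arm. The other 8 members had adjusted p between 0.514 and 0.941 in edgeR. S100a8 and S100a9 had interactions of 4.40 and 7.77, which were -6.29 and -3.80 without the long combination arm and 6.36 and 11.10 without the long anti-MIF arm. For anti-PD-1, 0 of 9583 genes (0%) passed in edgeR in the monocyte/macrophage gate, 476 had an unadjusted p under 0.05, and DESeq2 called 1. There S100a8 was fitted at -2.13 on the log2 scale (standard error 2.34) and Csf3r of 0.38 (standard error 0.21, adjusted p = 0.935 in edgeR).

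In the T gate, 0 of 5820 genes (0%) passed for anti-MIF and 0 of 5820 (0%) for anti-PD-1 in edgeR, 239 and 223 had an unadjusted p under 0.05, and DESeq2 called 1 in each comparison. S100a4, S100a6, S100a10 and S100a11 were the members with enough UMIs to be tested, and S100a8, S100a9, Slpi, Retnlg and Csf3r were not. With anti-MIF the 4 genes had log2 fold changes between -0.23 and 0.07. With anti-PD-1 they were between -0.40 and -0.10, with S100a4 at -0.40 (standard error 0.15, adjusted p = 1, edgeR). S100a4 in the T gate was at 1261, 909, 963 and 1074 CPM in the long cohort and at 1354, 1065, 1645 and 929 in the short cohort, so that the arms with anti-PD-1 lay between 909 and 1074 and overlapped those without at their lower end.

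Neutrophil marker cells of all gates were counted together, so their share is not one of neutrophils alone. The monocyte/macrophage gate held 17 of 42 of them in the long and 62 of 104 in the short cohort. Csf1r was present in 13 and 51 of these, and 6 and 40 had no UMI of S100a8 or S100a9. In the short anti-PD-1 arm, 24 of 30 lay in that gate. The share of marker cells ranged from 0.893% to 5.77% over the 8 arms, and arms with and without anti-MIF overlapped. It was 3.43% (exact Clopper-Pearson 95% interval 1.39% to 6.94%) with isotype, 2.82% (1.30% to 5.29%) in the anti-PD-1 arm, 1.82% (1.04% to 2.94%) in the anti-MIF arm and 3.72% (1.80% to 6.73%) in the combination arm in the long cohort. In the short cohort it was 5.77% (4.21% to 7.70%), 2.19% (1.48% to 3.11%), 4.86% (3.22% to 6.99%) and 0.893% (0.244% to 2.27%). In the short cohort the arms with anti-PD-1 had lower shares than those without. The intervals cover counting error of 1 pooled sample each, so this is a description and no test of anti-PD-1. The mean difference with anti-MIF was -0.73 percentage points (SD 1.12, n = 4 pairs), and 1 of 4 pairs went up (two-sided exact permutation test by sign flips, p = 0.25). With 4 pairs this test cannot reach 0.05, so it does not show that the shares are alike. The marker cells of the rest gate, counted alone after the data had been seen, were 0.980%, 2.19%, 1.25% and 1.86% of cells for the long arms and 3.09%, 0.438%, 2.16% and 0.223% for the short arms. The lowest of these shares were those of the short arms with anti-PD-1.

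Other genes of these pathways were followed as lists, which were set with earlier results of these data known. Of 21 further neutrophil genes, 5 had over 50% of their UMIs in neutrophil marker cells in the long and 4 in the short cohort. Among the most abundant of the list, Il1b (interleukin-1β), Ifitm1 (an interferon-induced membrane protein) and Cxcl2 (a neutrophil-attracting chemokine) had 6.55%, 1.04% and 11.2% of their UMIs there in the long cohort. They were at 2023, 661 and 436 CPM in the monocyte/macrophage gate. Of 11 other S100 genes, S100a13 and S100a1 were the only 2 with at least 100 UMIs in either cohort. Anxa2, the annexin partner of S100A10, was present in every gate, at 613 CPM in the T gate, 1345.5 in the mature DC gate, 732 in the monocyte/macrophage gate and 664 in the rest gate of the long cohort. Anxa1, a partner of S100A11, was at 31.7 and 9.17 CPM in the T and mature DC gates and at 199.5 in the monocyte/macrophage gate. A list of 4 serine proteases held Elane and Ctsg, which SLPI is known to inhibit, Mcpt4, and Prtn3, whose product is known to resist it. Prtn3 and Elane had 134 and 103 UMIs in the long cohort, 59.7% and 94.2% of them in neutrophil marker cells (for Elane 97 UMIs, all in the cell with most S100a8), and Ctsg and Mcpt4 had 0. In the short cohort Mcpt4, a mast cell protease, had 485 UMIs, all in the rest gate and none in marker cells, and Prtn3 had 203, of which 11.8% were in marker cells. Csf3, the ligand of Csf3r, had 0 UMIs in the long and 5 in the short cohort. Of the downstream genes, Cebpb and Stat3 were the most abundant, with Cebpb at 1672 CPM in the monocyte/macrophage and 185 in the T gate of the long cohort.

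None of these list genes was called for anti-MIF in edgeR, in either gate. In the monocyte/macrophage gate, the fitted change with anti-MIF was above 0 for 7 and below 0 for 13 of 20 tested further neutrophil genes, with a median log2 fold change of -0.21, against 0.01 over all genes tested. Of 7 tested partners and receptors of S100 proteins, 0 were higher and 7 lower (median -0.31). Of 6 tested genes of G-CSF receptor signaling, 1 was higher and 5 lower (median -0.20). With anti-PD-1, 14 of the 20 further neutrophil genes were higher and 6 lower (median 0.25), 5 of the 7 partners and receptors were higher and 2 lower (median 0.07), and 6 of the 6 genes of G-CSF receptor signaling were higher (median 0.18). None was called. The median over all genes tested was -0.01.

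Genes of like pattern were ranked by Pearson's r of log2(CPM + 10) over the gate, arm and cohort sums with at least 20000 UMIs, among 10479 genes. The sums share libraries and depth, and r is given as a description. S100a8 was most like S100a9 (r = 0.97), Lrg1 (0.94) and Retnlg (0.89), and S100a9 most like S100a8, Retnlg (0.94) and Lrg1 (0.91). Slpi was most like Clec4d (0.96), Slfn4 (0.96) and Fam129b (0.94), with Cxcl2 (0.94) and Clec4e (0.93) next. Csf3r was most like Nfam1 (0.98), Sh2b2 (0.97) and Trem1 (0.96). S100a4 was most like S100a6 (0.79) and S100a6 most like Tomm6 (0.81), whereas S100a10 was most like Krtcap2 (0.95) and S100a11 most like Atox1 (0.92).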

How the data were processed

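Single cells were prepared with the 10x Chromium 5′ system. The authors deposited raw UMI counts per gene and per hashtag for barcodes called as cells by Cell Ranger 7.1.0, without normalization; the submitters' notes also name Seurat 5.1.0, R 4.3.2 and DESeq2. Gene identifiers matched GENCODE vM21 on GRCm38, the mm10 build of the authors. Hashtags were assigned here by HTODemux (Seurat 5.3.0 under R 4.3.3, positive quantile 0.99), and hashtag doublets (425 and 626 barcodes) and negatives (24 and 176) were removed; no caller was run for doublets within an arm. Cells of a 5th hashtag, whose name adds DDT to the combination (322 and 993 cells), were left out. Cells with 200 to 5000 genes and at most 5% mitochondrial UMIs were kept, as in the study. Cells of more than 1 gate (24 and 25) went to the first gate met, in the order T, mature DC, monocyte/macrophage.

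Sums per arm were tested with edgeR 4.0.16 (filterByExpr, TMM, quasi-likelihood, Benjamini-Hochberg over all genes tested, 0.05), with DESeq2 1.42.0 as an alternative. The standard error is the absolute log2 fold change divided by the root of the F value. The pipeline was tested on simulated data, where it found few of the smaller effects for the difference between cohorts; an absent call there says little. Arms serve as replicates of each other, so p-values measure spread between pooled samples. Single arms have exact Poisson or Clopper-Pearson 95% intervals and ratios exact conditional binomial ones. Free RNA was not subtracted. Named genes were the 9 members, the 2 to 4 most abundant genes of each list and the 5 genes of most like pattern, with exceptions named in place. The members and lists were chosen with earlier results of these data known.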

Additional observations from a re-analysis of the deposited data

Results flagged for a closer look

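Among 34 groups of 4 arms, with or without anti-MIF, 3 had a sample far from the others by Dixon's ratio, which chance gives in about 1 in 20 groups of continuous values. For 2 of the 3, in the T gate, the ratio is 1 by construction, since 3 arms were at 0 and the other had 1 UMI, so that rate does not apply to them. S100a10 was at 804 CPM in the monocyte/macrophage gate of the long anti-PD-1 arm, the lowest of the arms without anti-MIF, of which the other 3 lay between 983 and 990 CPM. In the T gate S100a8 was at 3.41 CPM in the long combination arm, from 1 UMI, with the other arms with anti-MIF at 0. In the same gate S100a9 was at 2.44 CPM in the long anti-PD-1 arm, from 1 UMI, with the other arms without anti-MIF at 0.

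S100a4 and S100a6 in the monocyte/macrophage gate were lower with anti-MIF in both long pairs, by as little as -0.0080 for S100a4 in 1 of them, and higher in both short pairs. On average log2(CPM + 1) differed by -0.47 in the long and 0.08 in the short cohort for S100a4, and -0.48 and 0.07 for S100a6. The interaction test of edgeR did not call them (adjusted p = 0.640 and 0.622).

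In cells of the 5th hashtag, which enters no comparison, Slpi was at 1321 CPM in 25 T gate cells of the long cohort, against 0 in the other 4 arms. It came from 206 UMIs in 3 cells, 189 of them in 1 cell.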

How the results depend on the processing

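Counts of called genes moved by over 1.5 times under 12 alternatives that kept all arms. DESeq2 called 10 genes for anti-MIF, 1 for anti-PD-1 and 50 for the difference between cohorts in the monocyte/macrophage gate, and 1 and 1 for anti-MIF and anti-PD-1 in the T gate. With no filter on low counts the numbers were 42, 18, 284, 56 and 61. Leaving out cells of more than 1 gate gave 2 calls for anti-MIF in the T gate, and leaving out neutrophil marker cells gave 5 for the difference between cohorts. Leaving out each arm in turn gave 0 to 2 calls for anti-MIF and 0 to 1 for anti-PD-1 in the monocyte/macrophage gate, 0 to 114 for the difference between cohorts (114 without the long combination arm and 39 without the long anti-MIF arm), and 0 to 4 and 0 to 2 in the T gate. The cause was not tested. The mean difference in neutrophil marker cells with anti-MIF ranged from -1.27 to -0.44 percentage points when 1 pair was left out and was below 0 under its other alternatives, 2 of them chosen after seeing the data; its p-value cannot pass 0.05 with 4 pairs and says nothing about stability.

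No member was called in the 5 comparisons. Some alternatives called one in the direction given: without a filter Slpi and Retnlg for anti-MIF and S100a8, S100a9 and Slpi for the difference between cohorts; with DESeq2 Slpi, without the long anti-MIF arm S100a8 and S100a9, and without the long combination arm Slpi and S100a6 for that difference. Signs of log2 fold changes turned in 31 of 520 alternatives. Of these, S100a8 and S100a9 passed in the opposite direction for the difference between cohorts without the long combination arm (adjusted p = 0.000224 and 0.0467, edgeR). In the T gate S100a4 with anti-MIF was at 0.0646 without cells of more than 1 gate and at 0.0022 at the stricter hashtag quantile. In the monocyte/macrophage gate S100a9 with anti-PD-1 was at 0.40 without neutrophil marker cells, and Retnlg for the difference between cohorts at -4.24 at that quantile. The others turned when 1 arm was left out. With anti-MIF in the monocyte/macrophage gate, S100a8 then ranged from -0.57 to 4.27 and S100a9 from -0.41 to 5.83. With anti-PD-1 in this gate, S100a8 ranged from -4.19 to 0.13, S100a9 from -6.29 to 2.31, Retnlg from -5.49 to 3.21, S100a4 from -0.0675 to 0.30, S100a6 from -0.0740 to 0.28, S100a10 from -0.12 to 0.15 and S100a11 from -0.0852 to 0.25. For the difference between cohorts, S100a8 ranged from -6.29 to 6.36, S100a9 from -3.80 to 16.85, Retnlg from -0.67 to 13.49 and S100a10 from -0.53 to 0.28. In the T gate with anti-MIF, S100a4 ranged from -0.16 to 0.14, S100a6 from -0.29 to 0.0428 and S100a10 from -0.0503 to 0.24, and with anti-PD-1 S100a6 from -0.26 to 0.0905.

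Depth limits S100a9 and Retnlg in monocyte/macrophage gate cells, S100a8 in T gate cells and every share in the mature DC gate, where an arm held few cells. Shares of cells with a UMI move with depth, Csf3r and Slpi included: with all UMIs or with 1000 UMIs per cell, 31 of 72 shares stayed within the interval of the share at 2000 UMIs. Arm values of S100a8, S100a9 and Retnlg rest on few cells. Neutrophils hold little RNA, and cells under 200 genes were not counted.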
